A study of Mus musculus with 9 samples.

Results

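Cytosolic ribosomal proteins are the protein components of the ribosome, which reads messenger RNA and makes protein in every cell. The large and the small subunit each hold a fixed set of them around ribosomal RNA, and 3 acidic P proteins form a stalk on the large subunit that recruits elongation factors. Their messages are among the most abundant in liver, and most begin with a run of pyrimidines at the 5′ end, the TOP sequence, through which translation follows the growth signal of the mTOR kinase. Some members have paralogues that are used in other tissues or conditions.

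The family was chosen by symbol: every gene in the array annotation named Rpl or Rps with a digit, Rplp0 to Rplp2 or Rpsa, without pseudogenes and without the Rps6k kinases. No signal value enters that rule, but the family was put forward with the results of the db/db against BKS comparison known. The differences between these groups are therefore given as a description. The rule took in 81 symbols. Of these, 50 had at least 1 probe set annotated with that symbol alone and were measured, among 18193 genes measured in all. No filter on low signal was applied.

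The samples were livers of male mice at 14 weeks of age, fed standard chow, on 1-colour Affymetrix arrays. The 4 db/db samples came from BKS.Cg-Leprdb mice, which lack the long, signalling form of the leptin receptor and had become obese and diabetic with fatty liver. The 5 BKS samples came from littermates of the C57BL/KS background with both receptor alleles intact (lepr+/+). The receptor mutation is present in every tissue, so the groups differ in body weight, blood glucose and liver fat together. The labels do not say that each sample is a different mouse, so the p-values cover only the variation among these 9 arrays, which may be partly technical.

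Array medians of the deposited signal lay between 67.4 and 110.8. Levels below are log2(signal + 16) after quantile normalization, and a difference is db/db minus BKS. A gene passed the test at an adjusted p under 0.05 (limma, Benjamini-Hochberg over 18193 genes). The hepatocyte markers were bright in both groups, with Apoa1 at a mean level of 15.67. The arrays also differ in the control signal for 18S ribosomal RNA, which was 1873 to 19771 on db/db 3, db/db 4, BKS 4 and BKS 5 and 22.2 to 43.5 on the other 5 arrays. In bulk tissue, fewer cells of a type and less RNA per cell cannot be told apart.

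The promoter windows below are shown because a pyrimidine run at the start of the message is the sequence feature for which the family is known. They come from the RefSeq promoter table (GRCm38.p6), read on the strand of the gene from 30 bases before the annotated start through the first 20 bases of the transcript. Capitals mark a run that is a C followed by at least 7 further C or T and that begins within 10 bases of the start. Rps6 lies at chr4:86857348-86857397 (minus strand), Rpl13a at chr7:45128726-45128775 (minus), Rpl22l1 at chr3:28805478-28805527 (plus), Rplp2 at chr7:141447621-141447670 (plus), Rpl27a at chr7:109519165-109519214 (plus) and Rps27 at chr3:90213629-90213678 (minus). Rpl7l1, at chr17:46782637-46782686 (minus), and Rpl41, at chr10:128549149-128549198 (minus), have no such run and are shown for contrast.
Rps6: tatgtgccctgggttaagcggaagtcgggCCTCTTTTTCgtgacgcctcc
Rpl13a: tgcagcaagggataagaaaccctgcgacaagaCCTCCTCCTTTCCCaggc
Rpl22l1: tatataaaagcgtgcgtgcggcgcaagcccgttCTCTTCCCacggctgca
Rplp2: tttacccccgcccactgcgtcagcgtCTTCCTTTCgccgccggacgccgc
Rpl27a: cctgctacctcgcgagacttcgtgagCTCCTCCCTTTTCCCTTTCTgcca
Rps27: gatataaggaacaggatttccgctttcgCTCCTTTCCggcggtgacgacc
Rpl7l1: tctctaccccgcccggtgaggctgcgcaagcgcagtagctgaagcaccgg
Rpl41: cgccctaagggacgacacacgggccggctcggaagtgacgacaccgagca

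Of the 81 members, 66 had a promoter in the table, and 24 of these (36.4%) held the run. Among all 27025 genes with a promoter 2457 held it (9.09%). The run was searched on the strand of the gene only. In the windows above it began 1 base before the annotated start in Rps6 and 2 bases before it in Rps27. The share was 38.7% for the large subunit (12 of 31), 39.1% for the small subunit (9 of 23) and 22.2% for the paralogues (2 of 9). Mitochondrial ribosomal proteins, which form the separate ribosome of mitochondria, had it in 5 of 67 promoters (7.46%). A match in these letters is a description and not a mapped transcript start.

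Transcripts of cytosolic ribosomal proteins were mostly lower in db/db liver than in BKS liver, by a small amount. Of the 50 measured members 41 had a lower mean in db/db (82%), against 50.3% of all genes, and their median difference was -0.20 on the log2 scale, which is 1.15-fold lower. The median of all genes was -0.00. Only 4 members fell past the test, Rpl22l1, Rps20, Rpl7 and Rpl13a, and 0 rose. Over all genes 2.6% fell and 2.89% rose. At an unadjusted p under 0.05 there were 18 members, 17 of them lower, and 3208 genes in all. In 9 members all 4 db/db arrays lay below all 5 BKS arrays, and in 0 members did they lie above, against 4.42% and 4.73% of all genes. As the comparison was known when the family was chosen, nothing is read from these counts.

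**Figure D1:**
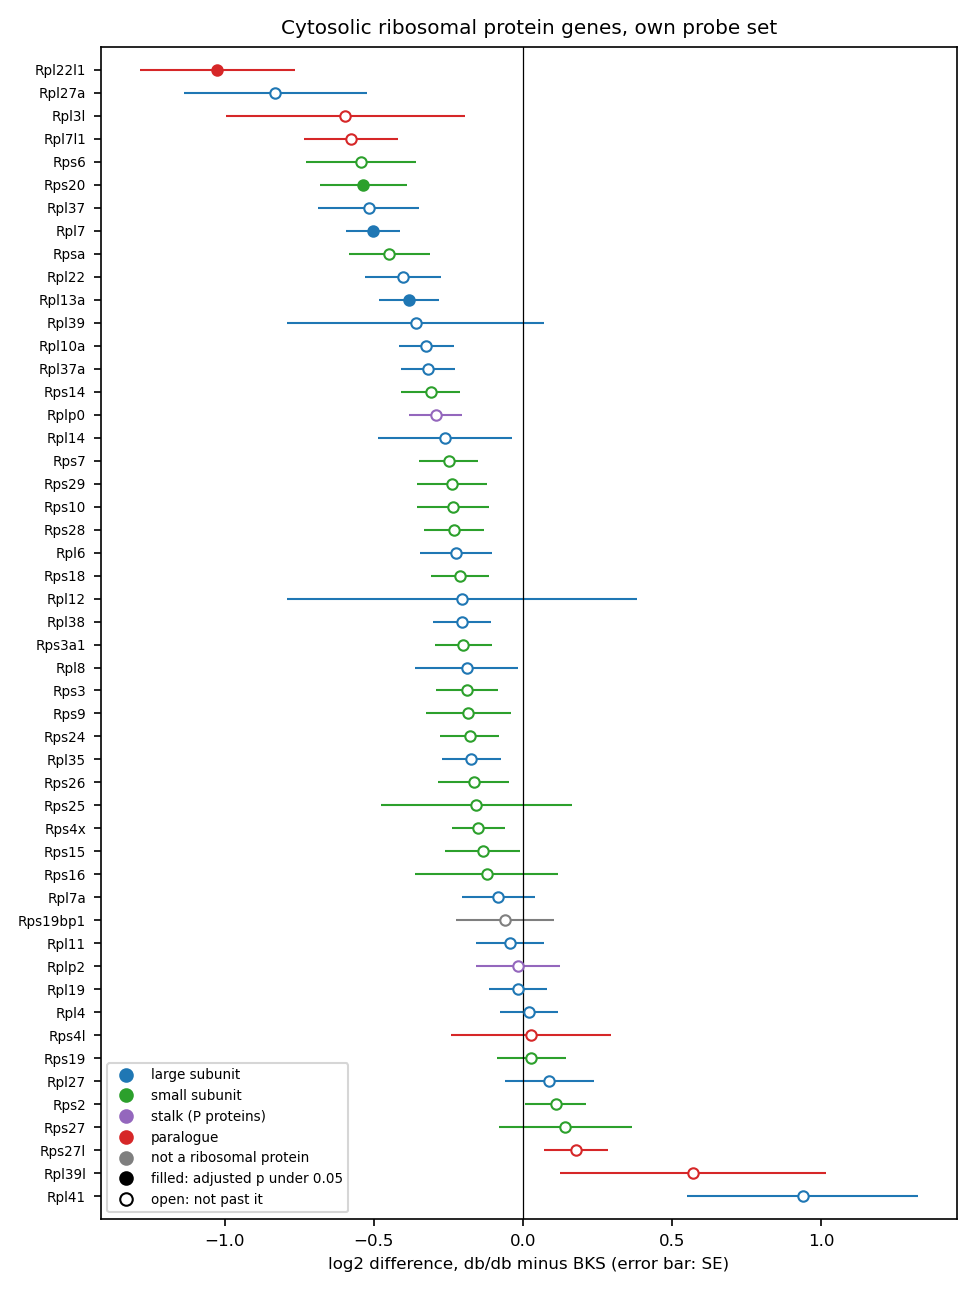
Log2 difference, db/db minus BKS, with its standard error, for each of the 50 members on a probe set of its own, ordered from the most negative at the top and coloured by role; filled points passed the test. Most points lie left of 0, between -0.54 and 0, and the 4 filled points are Rpl22l1, Rps20, Rpl7 and Rpl13a.

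Rpl7, a large subunit protein, gave the clearest separation. Its level was 13.56, 13.57, 13.51 and 13.45 on the db/db arrays, against 14.07, 14.00, 14.08, 14.07 and 13.91 on the BKS arrays. Every db/db array lay below every BKS array, with a gap wider than the spread within either group. The difference was -0.50 (SE 0.09, adjusted p = 0.00516), or 1.42-fold lower. It passed the test with each of the 9 arrays left out in turn, but not with median centring or without further scaling (adjusted p = 0.467 and 0.0926). The other probe sets of Rpl7 gave differences of -0.47 and -0.62.

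Rpl13a, a large subunit protein that also takes part in an inflammatory translation block, stood at 14.47, 14.57, 14.35 and 14.41 in db/db and at 14.79, 14.86, 14.90, 14.95 and 14.65 in BKS. The groups did not overlap, and the highest db/db array was close below the lowest BKS array. The difference was -0.38 (SE 0.10, adjusted p = 0.0418). Its 4 own probe sets all pointed down, with differences between -1.14 and -0.11. With 1 array left out it passed the test in 2 of 9 fits, without BKS 5 and without db/db 2, and the adjusted p reached 0.131.

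Rps20, a small subunit protein, stood at 13.89, 13.31, 13.79 and 14.02 in db/db and at 14.44, 14.01, 14.27, 14.44 and 14.27 in BKS. Array db/db 4 reached the level of BKS 2, so the groups overlapped, and db/db 2 was the lowest array. The difference was -0.54 (SE 0.15, adjusted p = 0.0495). A further bright probe set of Rps20 differed by -0.81 (SE 0.11). That set had no overlap, at 13.37 to 13.67 in db/db and 14.25 to 14.47 in BKS. The 2 dim sets differed by 0.15 and 0.27. With 1 array left out Rps20, on its brightest set, passed the test in 2 of 9 fits, without BKS 2 and without db/db 4.

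Rpl22l1 is a paralogue of Rpl22 that is made more when Rpl22 is low. It stood at 11.58, 10.84, 12.15 and 11.67 in db/db and at 12.79, 11.76, 12.76, 12.88 and 12.74 in BKS. BKS 2 lay among the db/db arrays, and the other 4 BKS arrays lay above all of them. The difference was -1.02 (SE 0.26, adjusted p = 0.0364), or 2.03-fold lower, the largest among the members. With 1 array left out it ran from -1.24 to -0.79 and passed the test in 2 of 9 fits, without BKS 2 and without db/db 3.

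**Figure D2:**
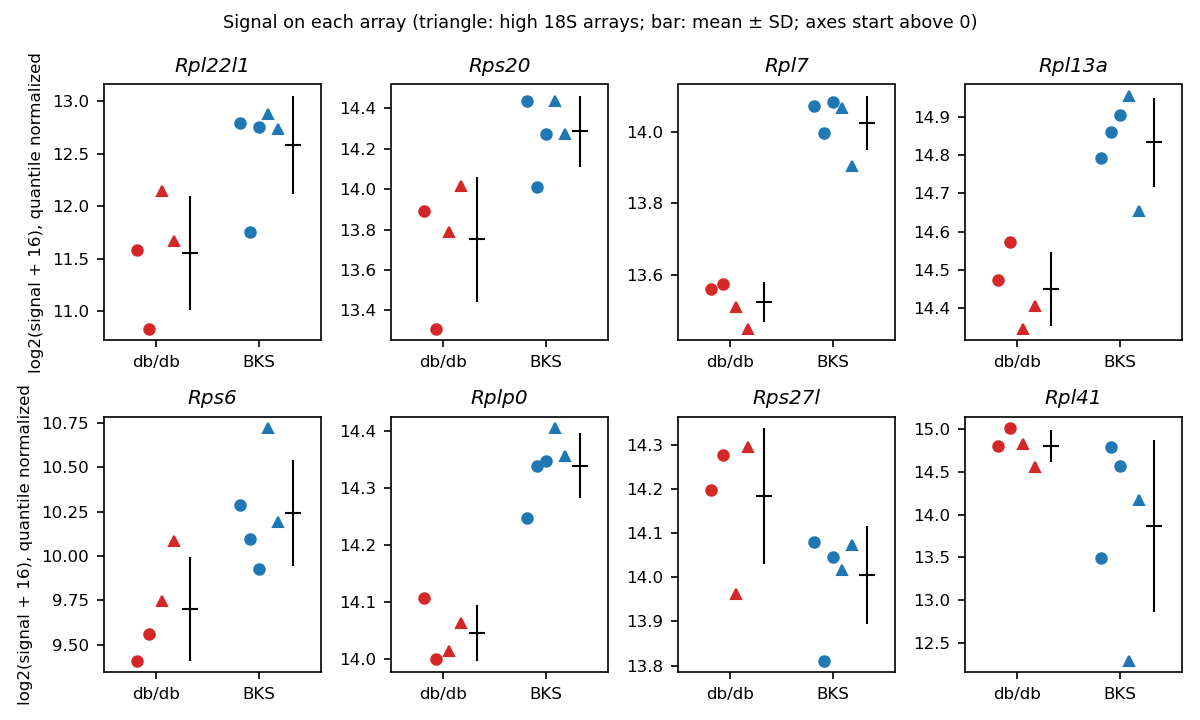
Level of 8 members on each array, db/db at the left and BKS at the right of each panel, as log2(signal + 16) after quantile normalization; triangles are the 4 arrays with high 18S signal, and the bar gives mean and SD. The groups are apart for Rpl7, Rpl13a and Rplp0 and overlap for the other 5, and each panel has its own axis.

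Among proteins of the large subunit 17 of 20 had a negative difference, with a median of -0.21. Rpl10a, Rpl37a and Rpl22 differed by -0.32 (SE 0.09), -0.32 (SE 0.09) and -0.40 (SE 0.13), and none of them passed the test (adjusted p = 0.0588, 0.0633 and 0.093). Rpl10a and Rpl37a had every db/db array below every BKS array. For Rpl37a this held on its brightest own set. Another own set of nearly the same level, 14.43, gave 0.01 (SE 0.14) with overlap, and a dimmer one gave -0.78 (SE 0.51). Rpl27a had the largest negative value of the subunit, -0.83 (SE 0.31, adjusted p = 0.162), on a probe set of moderate level. Its other own probe set was dim and gave 0.38 (SE 0.46). A brighter set that lists Rpl27a and other symbols, at a level of 14.21, gave a smaller difference of -0.18 (SE 0.11). Rpl11, which binds and restrains Mdm2 when ribosome assembly fails, was almost level at -0.04 (SE 0.11).

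Rpl41, the shortest ribosomal protein, stood out in the other direction at 0.94 (SE 0.39, adjusted p = 0.215). Its level was 14.81, 15.01, 14.83 and 14.56 in db/db and 13.50, 14.79, 14.57, 12.29 and 14.17 in BKS. The db/db arrays were close together, and the difference came with a wide spread in BKS, where BKS 4 was the lowest. The other bright probe set of Rpl41 gave 0.22.

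Among proteins of the small subunit 18 of 21 had a negative difference, with a median of -0.19. Rps6, the substrate of the S6 kinases, stood at 9.41, 9.56, 9.75 and 10.09 in db/db and at 10.29, 10.09, 9.92, 10.72 and 10.19 in BKS. The groups overlapped through db/db 4, and the difference was -0.54 (SE 0.19, adjusted p = 0.124). The brightest sets that list Rps6 and another symbol, at levels of 14.43 to 15.01, gave smaller differences of -0.23 to -0.12. Dimmer sets of this kind ranged from -0.53 to 0.65. Rpsa, which is also known as the laminin receptor, differed by -0.45 (SE 0.14, adjusted p = 0.079). Rps14, Rps3a1 and Rps16 had all db/db arrays below all BKS arrays, with differences of -0.31, -0.20 and -0.12, but the own probe set of Rps16 was at a level of only 4.24. Rps2 and Rps19 had small positive values of 0.11 and 0.03. Rps4x was at -0.15 (SE 0.09).

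The stalk is represented by Rplp0 and Rplp2. Rplp0, which anchors the other P proteins, stood at 14.11, 14.00, 14.01 and 14.06 in db/db and at 14.25, 14.34, 14.35, 14.40 and 14.36 in BKS. The groups did not overlap, and the spread within each was narrow, but the difference of -0.29 (SE 0.09) did not pass the test (adjusted p = 0.0778). Rplp2 differed by -0.02 (SE 0.14).

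The paralogues did not move as a group, with 3 of 6 lower. Rpl7l1, a relative of Rpl7 that acts in assembly of the large subunit, stood at 10.26, 10.40, 9.82 and 10.32 in db/db and at 11.13, 10.65, 10.77, 10.80 and 10.54 in BKS. All db/db arrays were below all BKS arrays, and the difference of -0.58 (SE 0.16) missed the threshold (adjusted p = 0.0528). That holds for its brightest own probe set only. Another set of nearly the same level, 10.33, gave -0.08 (SE 0.18), and a dimmer set gave -0.01 (SE 0.22). The groups overlapped on both. Rps27l, a p53 target, gave 0.18 (SE 0.11) beside 0.14 (SE 0.22) for its partner Rps27, and Rps4l gave 0.03 (SE 0.27). The own probe set of Rps27 was at a mean level of only 8.51. A brighter set that lists Rps27 and another symbol, at 13.80, had the other sign, at -0.23 (SE 0.13). Rpl3l, a striated muscle form, and Rpl39l, a form known from testis, were dim at mean levels of 5.28 and 5.29, and differed by -0.59 (SE 0.40) and 0.57 (SE 0.44). The partner Rpl39 was at -0.36 (SE 0.43). Rps19bp1, a nucleolar protein that binds Rps19 and is no ribosomal protein, was taken in by its symbol and differed by -0.06 (SE 0.16).

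The other 31 members were covered only by probe sets annotated with several symbols, and no value is given for them by name. They are Rpl3, Rpl5, Rpl9, Rpl10, Rpl13, Rpl15, Rpl17, Rpl21, Rpl23, Rpl23a, Rpl24, Rpl26, Rpl28, Rpl29, Rpl30, Rpl31, Rpl32, Rpl32l, Rpl34, Rpl35a, Rpl36, Rpl36a, Rpl36al, Rpl37rt, Rplp1, Rps12, Rps13, Rps15a, Rps21, Rps23 and Rps27rt. As a group, the 110 shared probe sets that list a member can be set beside the 106 own probe sets. The shared sets do not stand for these 31 alone. Some list members that also have an own set, among them 9 for Rps6 and 5 for Rpl14. In a fit over all 45037 probe sets that are not controls, 8 shared sets fell and 0 rose, and 6 own sets fell and 1 rose, against 1.19% and 1.58% of all probe sets. Of those at a level of 13 or above, 64 of 72 shared sets and 46 of 60 own sets were lower in db/db, with medians of -0.22 and -0.19. Among 900 other probe sets at that level 415 were lower, with a median of 0.02.

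**Figure D3:**
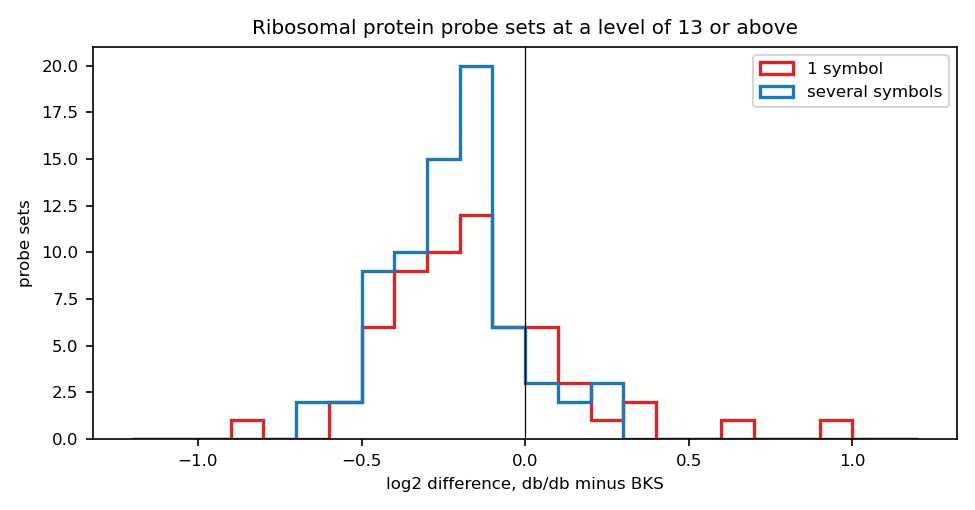
Number of ribosomal protein probe sets by log2 difference, db/db minus BKS, for those at a mean level of 13 or above, with 1 annotated symbol (60) and with several (72). Both distributions have their peak just below 0, and 3 sets with 1 symbol lie apart, 1 below -0.8 and 2 above 0.6.

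Different probe sets of 1 gene did not always give the same answer. Of 24 members with several own probe sets 16 had 1 sign throughout and 8 had both, and in 11 the differences were over 0.5 apart. Among 15 members with several sets at a level of 13 or above, the sign differed in 3, Rpl35, Rpl37a and Rps18. Rps18 had a set at -0.45 that fell (adjusted p = 0.0290) and another at 0.69 that rose (adjusted p = 0.0314). Its brightest set, which stands for the gene, gave -0.21. Ribosomal protein genes have many processed pseudogenes with nearly the same sequence. Of the 106 own probe sets, 43 carry the suffix that Affymetrix gives to sets matching several transcripts. Each gene's value is uncertain to that extent. Rpl7, Rps20 and Rpl13a passed the test on sets with this suffix. Their brightest own sets without it gave -0.47, 0.15 and -0.11, and that of Rps20 was dim.

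The members are bright genes. At a mean level of 13 or above there were 35 members and 618 other genes. The members at that level were lower in db/db in 29 of 35, with a median of -0.19, and the other genes in 44.5%, with a median of 0.03. Of these other genes 52 fell and 72 rose.

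**Figure D4:**
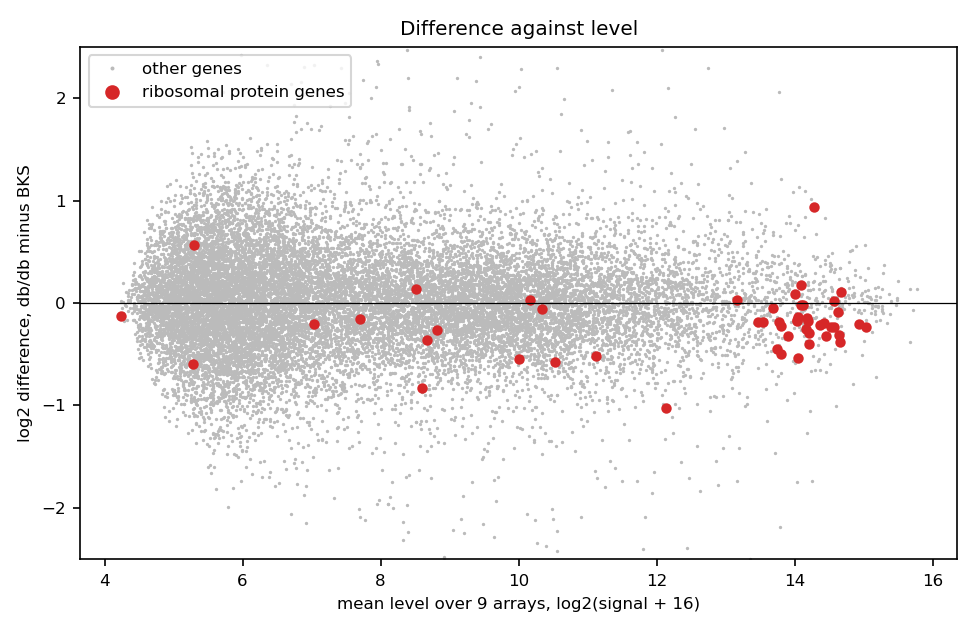
Log2 difference, db/db minus BKS, of each gene against its mean level over the 9 arrays; members are large points and the other genes small ones, and 66 other genes lie beyond the axis limit of 2.5. The group of 35 bright members lies mostly below 0, at the right edge of the plot, while the other genes there lie about 0.

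The median level of the 50 members on each array was 13.78, 13.92, 13.82 and 13.80 in db/db and 14.04, 14.02, 14.05, 14.02 and 13.98 in BKS. The groups did not overlap after quantile normalization. In the values as deposited, these medians were 13.66, 13.71, 14.01 and 13.91 in db/db and 14.04, 13.79, 13.89, 14.33 and 14.12 in BKS. There the groups overlapped, and the 2 db/db arrays with high 18S signal lay above BKS 2 and BKS 3. The call of single members depends on this scaling. With centring on the median in place of quantile normalization 0 members fell (1.17% of all genes fell). Without further scaling 0 members fell as well, although 450 of all 18193 genes did. The median difference of the members stayed negative under these 2 scalings, at -0.18 and -0.25.

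**Figure D5:**
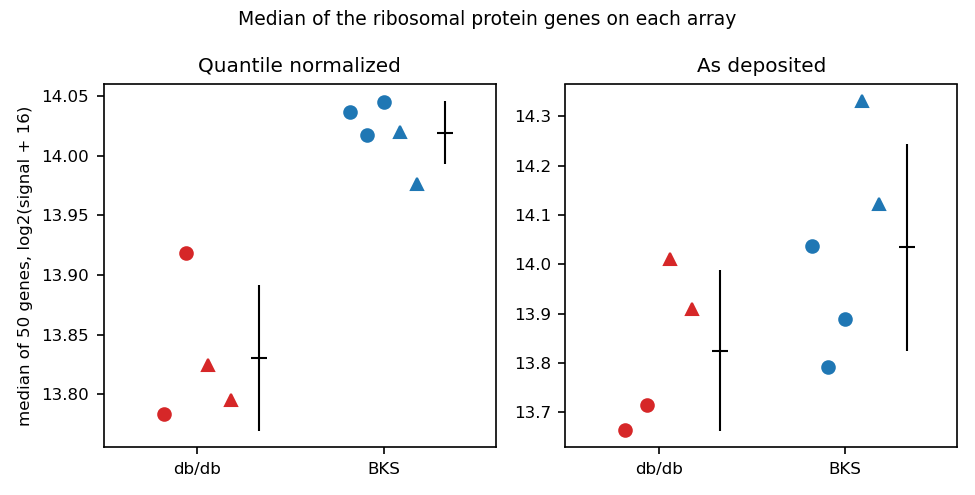
Median level of the 50 members on each array, db/db left and BKS right, after quantile normalization and as deposited; triangles are arrays with high 18S signal, bars are mean and SD. The groups are apart in the left panel (13.83 ± 0.06 in db/db and 14.02 ± 0.03 in BKS) and overlap in the right.

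Both sets of arrays defined by the 18S signal hold both genotypes, so the difference could be looked at within each. The median difference of the members was -0.19 on the arrays with low 18S signal (39 of 50 negative) and -0.20 on those with high 18S signal (41 of 50), and 35 members were negative in both. With the 18S set as a block in the fit 10 members fell (4.13% of all genes fell): the 4 above and Rpl7l1, Rps6, Rpsa, Rpl22, Rpl10a and Rpl37a. The largest of these other 6 were Rps6 at -0.58 and Rpl7l1 at -0.55 (adjusted p = 0.0259 and 0.0286). The Rps6 value is from its own probe set, and the bright shared sets of Rps6 differed less in the fit without the block. In that fit, further own sets of Rpl7l1 gave -0.08 and -0.01, and another bright own set of Rpl37a gave 0.01.

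The contrast between the 18S sets played no part in choosing the family and could be tested, although the split was known from earlier results. With genotype in the fit, 2 members were higher on the arrays with high 18S signal and 0 were lower, against 1.68% and 1.82% of all genes. Rpl8, a large subunit protein, differed by 0.47 (high minus low, SE 0.11, adjusted p = 0.0394). Rplp2 differed by 0.39 (high minus low, SE 0.09, adjusted p = 0.0362). Its level was 14.27, 14.29, 14.36 and 14.27 on db/db 3, db/db 4, BKS 4 and BKS 5 and lay between 13.77 and 14.05 on the other 5 arrays, with no overlap.

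Genes that work with the ribosomal proteins were looked up in lists drawn from textbook knowledge. Of 17 measured translation factors and other genes with TOP-type messages 13 were lower in db/db, with a median of -0.16, and 3 fell: Eef1b2, an exchange factor of elongation (-0.66, SE 0.13), Npm1, a nucleolar chaperone of ribosome assembly (-0.61, SE 0.13), and Hnrnpa1, an RNA-binding protein (-0.71, SE 0.15). Their adjusted p was 0.0111, 0.0115 and 0.0127. Eef1b2 stood at 12.89, 12.35, 12.78 and 12.91 in db/db and at 13.51, 13.14, 13.54, 13.46 and 13.30 in BKS, with no overlap. The elongation factors Eef1a1 and Eef2 were near 0, at -0.05 and -0.07. On its probe set of largest variance, in place of the brightest, Hnrnpa1 was positive at 0.35.

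Of 40 genes of ribosome biogenesis 2 fell and 1 rose, with a median of -0.06. Utp3 and Rrs1, assembly factors of the small and the large subunit, differed by -0.66 (SE 0.14, adjusted p = 0.0120) and -0.53 (SE 0.14, adjusted p = 0.0448). Utp3 passed the test under 23 of 27 alternative settings and Rrs1 under 11. Ncl, which encodes nucleolin, differed by 0.88 (SE 0.19, adjusted p = 0.0130), but gave -0.98 on its probe set of largest variance. Of 12 genes of RNA polymerase I and its factors 0 passed the test, with a median of -0.00.

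Among 15 measured genes that control ribosomal protein synthesis 2 rose and 1 fell. Ddit4, an inhibitor of mTOR signalling, stood at 9.30, 10.18, 9.94 and 10.01 in db/db and at 9.11, 8.89, 9.24, 8.17 and 9.02 in BKS, with no overlap. It differed by 0.97 (SE 0.24, adjusted p = 0.0319). Mtor itself differed by 0.55 (SE 0.14, adjusted p = 0.0418), though its probe set of largest variance gave -0.30, and Rheb, the activator of mTOR, by -0.52 (SE 0.14, adjusted p = 0.0462). Of 27 alternative settings, Ddit4 passed the test under 17, Mtor under 14 and Rheb under 12. Of 77 mitochondrial ribosomal proteins 1 fell (Mrpl44, -0.64) and 1 rose (Mrpl49, 0.78), with a median of 0.12, and 36.4% were negative, against 82% of the cytosolic members. The difference between these 2 lists was not tested. Fau, which is made as a fusion with a ubiquitin-like protein, differed by 0.39 (SE 0.17, adjusted p = 0.245).

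Members with the pyrimidine run in their promoter window and members without it are given side by side, with no test. Of the 50 measured members 44 had a promoter in the table, and Rpl7 and Rps20 were among those left out. Of 17 with the run 16 were negative, with a median of -0.20. Of 27 without it 20 were negative, with a median of -0.19. The group without the run holds Rps19bp1 and the dim Rpl3l, Rpl39l and Rps16.

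Of the markers of other cell types, 1 passed the test: Alas2, of developing red cells, was lower in db/db (-1.20, SE 0.25, adjusted p = 0.0114). The other red cell marker measured, the dim Hba-a1, differed by 0.07 (SE 0.50). The summed signal of both, most of it from Alas2, was 840.2 to 2103 in db/db and 2093 to 4006 in BKS. The 3 markers of dividing cells were dim, and the brightest of them, Cdk1, was at a mean level of 6.74. Their summed signal was 223 to 324 in db/db and 95.2 to 219 in BKS. These ranges did not overlap but lay close together, and none of the 3 markers passed the test. The summed signal of 6 Kupffer cell and macrophage markers was 1813 to 4936 in db/db and 3072 to 8594 in BKS. The part of these cells in the differences of the members was not tested.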

How the data were processed

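Biotinylated cRNA from total liver RNA was run on Affymetrix arrays, per the labels' protocols. The deposited values are linear intensities, 1 for each probe set on each array. Which software and background correction the authors used is not given in the sources used here. Their trimmed means (2% off each end) were 500.003 to 500.005, so the arrays share a common scale. All 9 columns matched a sample, and 0 were left over. Symbols came from the platform annotation: 34945 of 45101 probe sets had 1 symbol, 932 several, 9160 none and 64 were controls. A gene was represented by its brightest probe set with 1 symbol. Intensities were taken as log2(value + 16), and quantile normalized since array medians spanned 0.60. Tests used limma 3.58.1 in R 4.3.3 (lmFit, eBayes with trend, two-sided), and were tested on simulated data. The number of arrays limits the precision.

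Named genes were the members past the test, the 3 largest differences in each direction, the paralogues and their partners, Rplp0 to Rplp2, Rpsa, Rpl5, Rpl11, Rps6, Rpl13a and Rps19bp1, up to 2 per direction from each related list, and up to 3 per direction from the 18S contrast. Others named, among them those with no overlap between groups, were chosen after their values were seen. The members and lists were chosen with earlier results of these data known. Equal sample numbers were not taken as pairs. Alternatives changed the scaling, pseudocount, signal filter, probe set rule, fit, blocks and arrays.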

Additional observations from a re-analysis of the deposited data

Results flagged for a closer look

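In 44 checks of a named member within a group, 3 had 1 array far from the others, and chance gives about 1 in 20. Rpl3l was highest on db/db 1, at 5.99, with the next db/db array at 4.63, and is dim. Rpl22l1 was lowest on BKS 2 among the BKS arrays, at 11.76, with the next at 12.74. Rps27l was lowest on BKS 2 too, at 13.81, with the next at 14.02.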

How the results depend on the processing

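The median difference of the members was negative under all 27 alternatives, from -0.26 to -0.16, and 0 members rose under any of them. The number that fell was 4 and depended on the settings. It was 0 with median centring, without further scaling, without the intensity trend and on the low 18S arrays alone, 1 on the high 18S arrays alone, 2 with the probe set of largest variance, 11 of 47 among genes with a mean signal of at least 100 (595 of 10720 genes fell there), and 10 with the 18S block. Combined with that block, median centring gave 2 (400 genes lower in all). No further scaling with the block gave 6 (775 genes lower in all) and a median of -0.26. The same scaling without the block gave a median of -0.25 and 450 genes lower in all. These 2 combinations, the fit of arrays numbered 1 to 4 without a block and the fit over probe sets were chosen after seeing the data. The median was -0.16 on probe sets without the s or x suffix. With 1 array left out, 1 to 4 members fell. Over all genes 473 fell and 526 rose; the numbers were 212 and 323 with median centring, 212 and 254 without the trend, 220 and 216 on the low 18S arrays, 224 and 241 on the high 18S arrays, 260 lower with the probe set of largest variance, 273 lower with the mean of probe sets and 751 lower with the 18S block. With 1 array left out, 283 to 434 fell and 309 to 519 rose, the lowest numbers without db/db 3. Rps20 turned positive on its dim probe sets, at 0.27 by the largest-variance rule and 0.15 on sets without the suffix. The replicate number as a block needs the arrays numbered 1 to 4 and leaves out BKS 5: it gave 6 members lower, 544 lower and 597 higher genes and 11 lower in the related lists. The same arrays without the block gave 4, 410, 519 and 7, and the median was -0.23 in both. Same-numbered arrays had correlations of 0.03, 0.17, -0.07 and 0.13 in their deviations from the group means, and were not treated as paired. The cause of these changes was not tested. Probe sets carry no detection call, so no dim member could be called absent.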
